A study of Mus musculus with 35 samples.

Results

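The genes described here are 9 genes of surfactant and of the alveolar type 2 cell that makes it: Sftpa1, Sftpb, Sftpc, Sftpd, Abca3, Lamp3, Cxcl15, Napsa and Etv5. They were taken by symbol from the platform annotation, and each gene is given by its brightest probe set, judged by the mean of the 35 arrays. The annotation named 7 of the 9 with 1 symbol, through 11 probe sets, among 17097 genes named in that way. Sftpb and Lamp3 were not analysed here.

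Gene expression was measured in the whole lung of adult male wild type C57Bl/6 mice after 1 inhalation exposure of 6 h, and the lungs were taken on the morning after it. Styrene, an industrial solvent vapour, was given at 1, 5, 10, 20, 40 or 120 ppm, and the mice at 0 ppm breathed air only. There were 5 Affymetrix HT MG-430 PM arrays at each of the 7 doses, 35 in all, and the question is how expression depends on the dose. The labels call the arrays biological replicates, but animal number 15 stands in 2 titles, those of replicate 5 at 1 ppm and replicate 1 at 5 ppm, so p-values measure the spread between arrays. All values are log2 signals as the authors deposited them, and a difference of 1 is a doubling of the signal.

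Alveolar type 2 cells line the alveolus beside the thin type 1 cells, and they store surfactant in lamellar bodies before releasing it. Surfactant is mostly phospholipid. Its hydrophobic proteins SP-B and SP-C spread the lipid film that keeps alveoli open, and its collectins SP-A and SP-D bind microbes and help clear them. The lipid transporter ABCA3 fills the lamellar bodies, the protease napsin A helps to process the SP-B precursor, and the ETS factor ETV5 maintains the type 2 cell state in mice. SP-A, SP-D and the chemokine CXCL15 are also made by club cells of the mouse airway, so at least 3 of these genes are not markers of type 2 cells alone. Expression of the other members in further cell types was not examined here.

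The upstream sequences of 3 members are shown because Sftpa1 and Cxcl15 fell at the highest dose while Abca3, by its brightest probe set, passed the test at none. Each is the 250 bases before the annotated start site, 5′ to 3′ on the gene's own strand, from the RefSeq promoter table of build GRCm38.p6. That table held 6 of the 9 genes. Capitals mark matches to 4 short motifs searched on both strands.
Sftpa1, chr14:41131538-41131787, plus strand: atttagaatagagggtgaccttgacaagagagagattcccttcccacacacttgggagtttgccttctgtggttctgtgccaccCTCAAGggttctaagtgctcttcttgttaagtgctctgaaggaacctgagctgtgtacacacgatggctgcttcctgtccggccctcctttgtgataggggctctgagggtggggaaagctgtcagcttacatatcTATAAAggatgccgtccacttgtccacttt
Cxcl15, chr5:90794284-90794533, plus strand: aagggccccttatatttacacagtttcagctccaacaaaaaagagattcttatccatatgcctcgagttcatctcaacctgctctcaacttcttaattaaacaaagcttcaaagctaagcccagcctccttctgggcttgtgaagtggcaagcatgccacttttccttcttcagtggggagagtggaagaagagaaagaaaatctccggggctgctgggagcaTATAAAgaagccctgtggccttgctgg
Abca3, chr17:24351773-24352022, plus strand: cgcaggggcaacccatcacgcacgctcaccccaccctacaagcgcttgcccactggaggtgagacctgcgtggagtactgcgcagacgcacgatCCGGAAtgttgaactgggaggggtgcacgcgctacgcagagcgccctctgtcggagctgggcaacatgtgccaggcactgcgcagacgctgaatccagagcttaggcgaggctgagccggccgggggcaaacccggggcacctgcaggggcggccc
The Sftpa1 window held CTCAAG, the core motif of the lung factor NKX2-1, from 166 to 161 bases before the start, and a TATA box (TATAAA) from 30 to 25 bases before it. The Cxcl15 window held a TATA box from 27 to 22 bases before the start. In the Abca3 window the ETS core CCGGAA lay from 156 to 151 bases before the start, and the FOXA core TGTTTAC was in none of the 3 windows. Of 32851 mouse promoter windows of the same length, 13.3% held CTCAAG, 12.4% held TATAAA, 12% held CCGGAA and 3.17% held TGTTTAC. These matches are letters in a window and were not tested as binding sites.

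All 7 genes gave signals above every one of the 23 nonspecific hybridisation controls on all 35 arrays. The brightest probe sets of Sftpa1, Sftpc, Sftpd and Cxcl15 lay above log2 12 on every array, a range in which array signal can saturate and differences are then compressed. The 120 ppm arrays stood apart from the others in technical measures. Their upper quartile over all probe sets was 6.33 to 6.78, against 6.90 to 7.00 on the 30 arrays at 0 to 40 ppm. Their poly-A spike-in controls averaged 7.73 to 8.67, against 5.98 to 6.89, and their highest nonspecific control was 6.71 to 7.36, against 4.57 to 6.43. The signal near the 3′ end less that near the 5′ end was −0.13 to 0.04 for Gapdh at 120 ppm, against −0.19 to 0.10 at the lower doses, and 0.12 to 0.19 for actin, against 0.14 to 0.31. The part of these array differences in the results at 120 ppm was not tested.

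Of the 2 collectin genes, Sftpd, which encodes SP-D, rose at 10 ppm and at each higher dose, and Sftpa1, which encodes SP-A, fell at 120 ppm. Whether the genes differed from each other was not tested.

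Sftpd gave 12.80, 12.90, 12.91, 12.93 and 12.90 on the 10 ppm arrays and 12.90, 12.91, 13.06, 12.89 and 12.96 on the 20 ppm arrays. At 40 ppm it gave 12.87, 12.83, 12.96, 12.86 and 12.92, against 12.49, 12.52, 12.60, 12.57 and 12.68 at 0 ppm. All 15 arrays at 10 to 40 ppm lay above all 5 arrays at 0 ppm. At 1 ppm Sftpd ran between 12.44 and 12.64 and at 5 ppm between 12.44 and 12.74, both overlapping the 0 ppm arrays.

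Differences from 0 ppm were tested with limma, in 1 fit over all 35 arrays. A gene is said to have risen or fallen where its Benjamini-Hochberg adjusted p, taken over all 17097 genes, was under 0.05. Sftpd rose by 0.32 ± 0.065 at 10 ppm (SE, adjusted p = 0.000790), which is 1.24-fold. It rose by 0.38 at 20 ppm (adjusted p = 9.0e-05) and by 0.32 at 40 ppm (adjusted p = 0.000707), while its differences at 1 and 5 ppm, −0.03 and 0.02, did not pass. Over the 30 arrays from 0 to 40 ppm its slope was 0.08 ± 0.012 per unit of log2(dose + 1) (adjusted p = 3.15e-06). The 3 doses from 10 to 40 ppm had means of 12.89, 12.95 and 12.89, and 40 ppm did not differ detectably from 20 ppm (difference −0.06, 95% interval −0.19 to 0.08).

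At 120 ppm Sftpd gave 12.73, 12.68, 12.74, 12.71 and 12.95, with replicate 5 far above the other 4 and 1 array below the highest 0 ppm array. It rose against 0 ppm by 0.19 ± 0.065 (SE, adjusted p = 0.00904). Against 40 ppm the difference was −0.13 (adjusted p = 0.0747). Without replicate 5 it was −0.18 (adjusted p = 0.0123).

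Sftpa1 gave 13.29, 13.26, 13.30, 13.31 and 13.32 at 10 ppm and 13.30, 13.33, 13.36, 13.36 and 13.30 at 20 ppm, against 13.25, 13.20, 13.23, 13.23 and 13.24 at 0 ppm. Every array of both doses lay above every 0 ppm array, yet the differences of 0.07 (adjusted p = 0.586) and 0.10 (adjusted p = 0.321) did not pass. The fit uses 1 estimate of spread per gene for all doses. The SD of Sftpa1 was 0.019, 0.023 and 0.029 at 0, 10 and 20 ppm, but 0.126 at 5 ppm and 0.107 at 120 ppm. At 120 ppm it gave 13.06, 13.03, 13.03, 12.92 and 13.22. Of these 5 arrays 4 lay below all 0 ppm arrays and replicate 5 lay among them. Sftpa1 fell by 0.18 on the log2 scale against 0 ppm (SE 0.059, adjusted p = 0.00839). It fell by 0.17 against 40 ppm, where it had given 13.18 to 13.28 (adjusted p = 0.00972). Centring each array on its median left −0.09 against 0 ppm (adjusted p = 0.192) and −0.14 against 40 ppm (adjusted p = 0.0585). Centring put 0.08 on every gene's difference between 120 and 0 ppm. It moved the median difference over all genes from 0.15 to 0.24, further from 0.

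Sftpc, which encodes SP-C and is the defining marker of type 2 cells, passed the test at no dose. It gave 13.87, 13.84, 13.84, 13.84 and 13.82 at 120 ppm, against 13.81, 13.82, 13.84, 13.84 and 13.84 at 0 ppm. All 35 arrays lay between 13.78 and 13.91, and on each of them Sftpc was within 0.175 of the highest signal of that array. The difference at 120 ppm was 0.01, with a 95% interval of −0.08 to 0.11 (adjusted p = 0.805). At 10 ppm every array lay above every 0 ppm array, with 13.85 to 13.89 against 13.81 to 13.84, and the difference of 0.04 did not pass (adjusted p = 0.708). A signal so near the top of the range has little room to rise, and a fall in transcript can be compressed in it as well. The interval is one of log2 signal, not of transcript number, so it sets no limit on a fall in transcript.

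**Figure D1:**
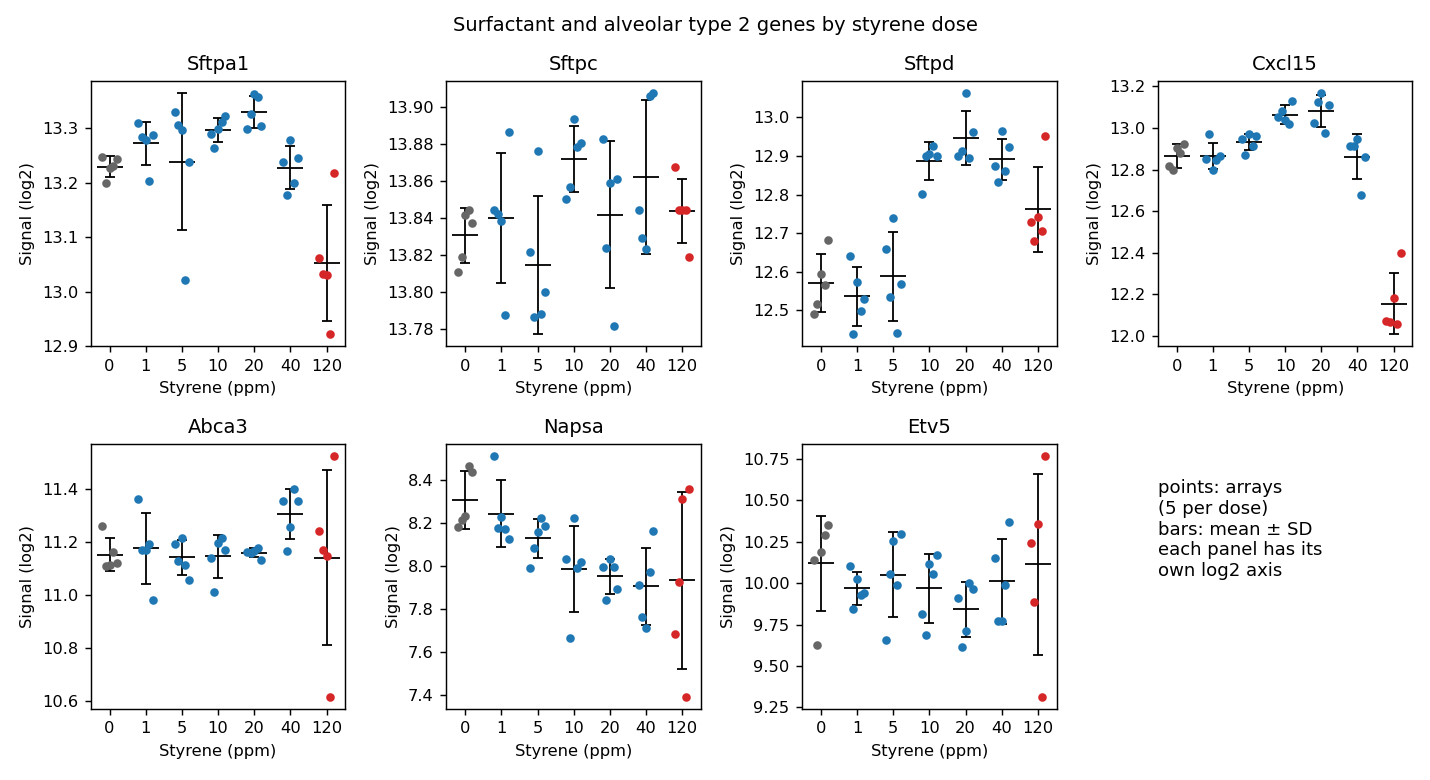
Log2 signal of the brightest probe set of each of 7 genes on 35 arrays, 5 per styrene dose in ppm; points are arrays, bars are the mean ± SD, and each panel has its own axis. Sftpd lies between 12.80 and 13.06 at 10 to 40 ppm, above the 12.49 to 12.68 of 0 ppm, and Cxcl15 drops to 12.06 to 12.40 at 120 ppm.

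Cxcl15, a chemokine of mouse lung epithelium that attracts neutrophils, rose at the middle doses and fell at the highest. It gave 13.05, 13.08, 13.04, 13.02 and 13.13 at 10 ppm and 13.03, 13.12, 13.17, 12.98 and 13.11 at 20 ppm, against 12.82, 12.80, 12.91, 12.88 and 12.92 at 0 ppm. All 10 arrays of these doses lay above all 5 arrays at 0 ppm. Cxcl15 rose by 0.20 at 10 ppm (SE 0.066, adjusted p = 0.0433) and by 0.22 at 20 ppm (adjusted p = 0.0252). The rise at 10 ppm passed narrowly: leaving out any 1 of 9 of the 10 arrays ended it, with adjusted p between 0.0548 and 0.109. Leaving out 1 of 5 arrays ended the rise at 20 ppm, with a highest adjusted p of 0.0761.

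At 40 ppm Cxcl15 gave 12.91, 12.91, 12.95, 12.68 and 12.86, which overlaps 0 ppm (difference −0.0037, 95% interval −0.14 to 0.13). All 5 of these arrays were lower than all 5 at 20 ppm, by 0.22 in the mean, and this difference did not pass the adjustment over all genes (adjusted p = 0.234). At 120 ppm the gene gave 12.07, 12.06, 12.18, 12.06 and 12.40, all below every array at the other doses. It fell by 0.71 ± 0.066 on the log2 scale against 0 ppm (SE, adjusted p = 1.98e-11), which is 1.64-fold, and by 0.71 against 40 ppm (adjusted p = 3.12e-11). Without replicates 4 and 5 of 120 ppm the difference from 0 ppm was −0.76 (adjusted p = 5.03e-12).

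Napsa, which encodes napsin A, was lower at the upper doses. It gave 7.91, 7.76, 7.71, 7.97 and 8.16 at 40 ppm, against 8.18, 8.21, 8.23, 8.47 and 8.44 at 0 ppm. The 40 ppm arrays were all lower, as were those at 20 ppm, which ran between 7.84 and 8.03. Napsa fell by 0.40 at 40 ppm (SE 0.129, adjusted p = 0.0347), and its slope over 0 to 40 ppm was −0.08 ± 0.014 (SE, adjusted p = 4.83e-05). Its mean was lower at each dose than at the one before, with 8.31, 8.24, 8.13, 7.99, 7.95 and 7.91 from 0 to 40 ppm, though neighbouring doses overlapped.

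The differences of Napsa from 0 ppm at 10 ppm, −0.32 (adjusted p = 0.114), and at 20 ppm, −0.35 (adjusted p = 0.0657), did not pass. With the 120 ppm arrays left out of the fit they were the same size with adjusted p = 0.0169 and 0.00733. At 120 ppm Napsa gave 7.68, 7.92, 8.31, 7.39 and 8.36, a wide spread that overlaps 0 ppm. It fell there by 0.37 (adjusted p = 0.0104 by limma). Without replicate 4, the array with the lowest upper quartile, the difference was −0.24 (adjusted p = 0.0687). Napsa lay nearer to the nonspecific controls at 120 ppm, where the highest control was 6.71 to 7.36, against 5.90 to 6.34 at 0 ppm. Replicate 4 gave 7.39 beside a highest control of 7.09.

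Abca3, the lamellar body lipid transporter, passed the test at no dose by its brightest probe set. This probe set gave 11.24, 11.17, 11.15, 10.62 and 11.53 at 120 ppm, against 11.26, 11.11, 11.11, 11.16 and 11.12 at 0 ppm. The 120 ppm arrays spread on both sides of the 0 ppm ones, and the difference was −0.01, with a 95% interval of −0.21 to 0.18 (adjusted p = 0.912). At 40 ppm the gene gave 11.35, 11.17, 11.26, 11.40 and 11.36, of which 3 arrays lay above all 0 ppm arrays, and the difference of 0.15 did not pass (adjusted p = 0.369).

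Etv5 was the most variable member, with a median SD within a dose of 0.256. It gave 10.25, 9.88, 10.36, 9.31 and 10.77 at 120 ppm, against 10.14, 9.63, 10.19, 10.29 and 10.35 at 0 ppm. The lowest and the highest of all 35 arrays were both 120 ppm arrays, replicates 4 and 5. Its mean difference there was −0.01, with a 95% interval of −0.36 to 0.35 (adjusted p = 0.981). The lowest mean was at 20 ppm, 9.84 ± 0.17 against 10.12 ± 0.29 at 0 ppm (SD, n = 5 arrays each), a difference of −0.28 that did not pass (adjusted p = 0.367 by limma). Further probe sets that the annotation shares between Etv5 and Scpep1 showed differences of 0.24 and 0.15 at 120 ppm (adjusted p = 0.445 and 0.592) and are not counted among the 11.

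Replicates 4 and 5 of 120 ppm marked the ends of several genes. By the brightest probe sets, replicate 4 was lowest of the 5 in Sftpa1, Abca3, Napsa, Etv5 and, by a narrow margin, Cxcl15. It had the lowest upper quartile of its group (6.33). Replicate 5, with the highest (6.78), was the highest of the 5 in the same genes and in Sftpd. In the second brightest probe sets, replicate 4 was lowest for Abca3 (8.92), highest for Cxcl15 (11.78) and near the highest for Sftpa1 (10.47). With both left out, an alternative chosen after the values were seen, Sftpd again rose (adjusted p = 0.0475), and Cxcl15, Sftpa1 (adjusted p = 0.00490) and Napsa (adjusted p = 0.0145) again fell against 0 ppm.

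At 1 ppm 0 of the 7 genes changed by limma, where 0% of all genes did, and none of the 7 had an unadjusted p under 0.05, which 1190 of all genes had. At 5 ppm the count was again 0 of 7, none with an unadjusted p under 0.05, where 1.16% of all genes changed, 1.13% rising and 0.0234% falling. At 10 ppm 2 of 7 rose and none fell, where 11.8% of all genes changed, 5.17% rising and 6.62% falling. At 20 ppm again 2 of 7 rose, where 13.2% of all genes changed, 6.45% rising and 6.74% falling. After quantile normalisation Napsa also passed at 20 ppm, so that 2 rose and 1 fell.

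At 40 ppm 1 of 7 rose and 1 fell, where 12.7% of all genes changed, 7.69% rising and 5.04% falling, and after median centring the rise of Sftpd alone passed. Between 40 and 20 ppm 0 members changed by limma, 1 of them with an unadjusted p under 0.05, where 0% of all genes changed. The slope from 0 to 40 ppm passed for 1 rising and 1 falling member, where 26% of all genes had a slope, 13.2% rising and 12.9% falling. Median centring added the rise of Cxcl15 to the slopes.

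At 120 ppm 1 of 7 rose and 3 fell, where 74.8% of all genes changed, 42.9% rising and 31.9% falling. Fitted with the 120 ppm and 0 ppm arrays alone, only the fall of Cxcl15 passed there. Against 40 ppm 2 of 7 fell, where 70.9% of all genes changed, 39.8% rising and 31.1% falling. The members' median difference from 0 ppm was 0.04 at 10 ppm, beside −0.02 over all genes, and 0.01 at 20 ppm, beside −0.02. It was −0.0019 at 40 ppm, beside 0.01 over all genes, and −0.01 at 120 ppm, beside 0.15. At 10, 20 and 40 ppm 2 of 7 members changed, and at 120 ppm 4 of 7 did, a dose at which most genes on the array changed.

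**Figure D2:**
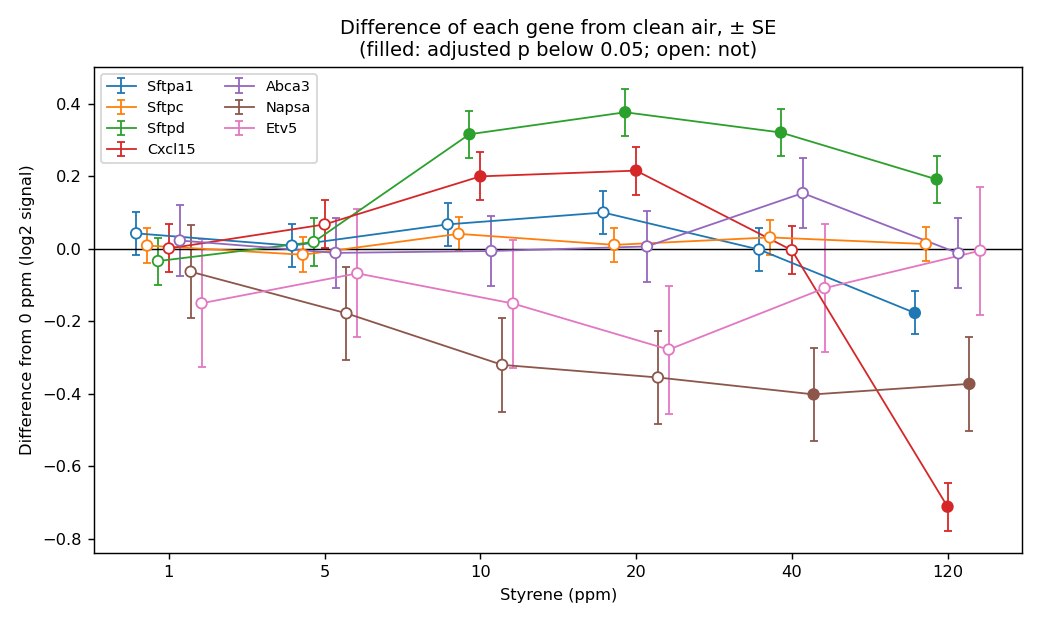
Difference of each of 7 genes from 0 ppm in log2 signal at 6 styrene doses in ppm, with SE bars; filled points passed the adjusted threshold of 0.05. Sftpd stays between 0.19 and 0.38 from 10 ppm upward, Cxcl15 turns from 0.22 at 20 ppm to −0.71 at 120 ppm, and Sftpc stays near 0.

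Sftpa1, Cxcl15 and Abca3 each had further probe sets that the annotation gives to the same symbol. Which stretches or forms of the transcripts they report on was not examined. For these the fit was made over 45037 probe sets, 66.9% of which changed at 120 ppm against 0 ppm. The dimmer probe set of Sftpa1 gave 9.94, 10.04, 9.93, 10.47 and 10.51 at 120 ppm, against 11.56, 11.63, 11.69, 11.67 and 11.80 at 0 ppm. All 120 ppm arrays were lower, and it fell by 1.49 ± 0.097 on the log2 scale (SE, adjusted p = 7.65e-15). The brightest probe set of Sftpa1, at 13.2 on average in 0 ppm lungs, fell by 0.18.

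The gap between the 2 Sftpa1 probe sets was 2.45 to 3.12 at 120 ppm and 1.45 to 1.69 at 0 ppm, a difference of 1.31 (two-sided exact permutation p = 0.00794, the smallest that 5 arrays against 5 allow, and 0.0132 after adjustment over 5 pairs of probe sets). At 10 and 20 ppm the dimmer one showed differences of 0.03 and 0.07, neither of which passed.

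The dimmer probe set of Cxcl15 gave 12.60 to 12.69 at 10 ppm and 12.56 to 12.75 at 20 ppm, against 12.28 to 12.45 at 0 ppm, with no overlap. It rose by 0.29 at 20 ppm (adjusted p = 0.0406), where 8.91% of probe sets changed, and its difference at 10 ppm was 0.27 (adjusted p = 0.0696). At 120 ppm it gave 11.20, 11.14, 11.27, 11.78 and 11.61, against 12.28, 12.33, 12.41, 12.44 and 12.45 at 0 ppm. It fell by 0.98 ± 0.092 on the log2 scale (SE, adjusted p = 2.82e-11). Both probe sets of Cxcl15 thus moved in the same direction at 20 and at 120 ppm, and the change in their gap, 0.27, had an exact permutation p of 0.0476 (0.0595 adjusted over the 5 pairs).

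The second brightest probe set of Abca3 gave 9.78, 9.62, 9.61, 8.92 and 9.99 at 120 ppm, against 9.68, 9.53, 9.65, 9.46 and 9.54 at 0 ppm. Its difference of 0.01 did not pass (adjusted p = 0.945), and its gap to the brightest changed by −0.02 (exact permutation p = 0.675). The third gave 4.19, 4.14, 4.95, 5.19 and 3.88 at 120 ppm, against 6.12, 6.19, 6.44, 6.36 and 6.47 at 0 ppm. It was lower on all 5 arrays (adjusted p = 2.44e-11), but its signal at 120 ppm lay below the highest nonspecific control of each array, so no size is given. Its slope over 0 to 40 ppm also passed as falling (limma, adjusted p = 0.00354). There too it lay near the controls, with 4 of 5 arrays above them at 0 ppm and 2 of 5 at 40 ppm.

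**Figure D3:**
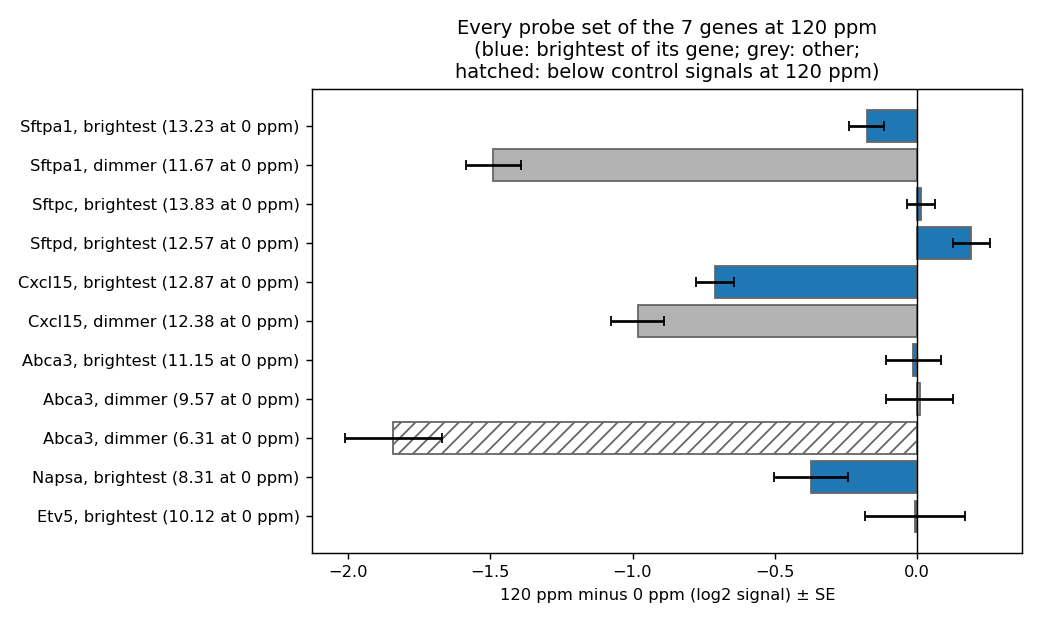
Difference between 120 and 0 ppm in log2 signal, with SE bars, for the 11 probe sets of the 7 genes; the mean at 0 ppm stands beside each name. The dimmer probe set of Sftpa1 fell by 1.49 and the brightest by 0.18. The hatched Abca3 probe set lay below the control signals at 120 ppm, so the length of its bar is not a measure of size.

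Surfactant lipid synthesis was covered by 14 measured genes of 16 listed. At 20 ppm 1 rose and 3 fell, where 13.2% of all genes changed, and the median difference was −0.06. Lpcat1, the acyltransferase that remodels surfactant phosphatidylcholine, fell by 0.38 (adjusted p = 0.000220), with 11.12 at 20 ppm against 11.51 at 0 ppm. Lpin1, a phosphatidate phosphatase, fell by 0.76 (adjusted p = 0.00165), and the choline kinase Chka fell by 0.46 (adjusted p = 0.00394). Acsl4, which activates long fatty acids, rose by 0.81 (adjusted p = 0.00380).

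At 120 ppm 3 genes of lipid synthesis rose and 8 fell, where 42.9% of all genes rose and 31.9% fell, with a median of −0.36 beside 0.15 over all genes. Cept1, of the last step of phosphatidylcholine synthesis, fell by 1.84 (adjusted p = 6.74e-14). Gpam, which starts glycerolipid synthesis, fell by 1.40 (adjusted p = 5.44e-10), and the desaturase gene Scd1 fell by 1.39 (adjusted p = 5.20e-12). Pcyt2, of the phosphatidylethanolamine branch, rose by 1.28 (adjusted p = 5.49e-14). Centring on the median left 7 falling genes and quantile normalisation 8.

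Among 11 measured genes of surfactant processing, secretion and clearance, 2 rose and 1 fell at 20 ppm, where 13.2% of all genes changed. Ctsh, a cathepsin that cleaves surfactant protein precursors, rose by 0.36 (adjusted p = 0.0101), and Vamp8, of vesicle fusion, fell by 0.27 (adjusted p = 0.00573). The purine receptor gene P2ry2 passed too, but lay below the nonspecific controls at both doses and is given no size. At 120 ppm 5 rose and 3 fell, 8 of 11 in all, which is near the 74.8% of all genes that changed. The flippase gene Atp11a fell by 1.49 (adjusted p = 1.67e-11), and Adgrf5, a receptor that restrains the surfactant pool in mice, fell by 1.33 (adjusted p = 5.25e-10). Ap3b1, of lamellar body trafficking, was at least 2.30-fold lower, being above the nonspecific controls on only 1 of the 5 arrays at 120 ppm (adjusted p = 7.91e-12).

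Of 14 measured regulators of the type 2 cell, 2 rose and 1 fell at 20 ppm, where 13.2% of all genes changed. Cebpa, a factor of type 2 cell maturation, fell by 0.64 (adjusted p = 5.98e-06). Dusp6, a target and brake of FGF and ERK signalling, rose by 0.42 (adjusted p = 0.00142), and Stat3 rose by 0.33 (adjusted p = 0.00409). At 120 ppm 6 rose and 6 fell, where 42.9% of all genes rose and 31.9% fell, shares not far from those of the regulators. Srebf2, the sterol regulator, rose by 1.57 (adjusted p = 3.52e-13), Foxa1 fell by 1.01 (adjusted p = 3.73e-11) and Id2 fell by 0.96 (adjusted p = 1.13e-06). Fgfr2, the receptor upstream of Etv5, was at least 3.26-fold lower, with 1 of 5 arrays at 120 ppm above the controls (adjusted p = 2.39e-11). Cebpa, followed to 120 ppm after its values were seen, rose there by 0.68 (adjusted p = 6.89e-08).

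Further markers of type 2 cells moved in both directions at the middle doses. Of 11 measured, 2 rose and none fell at 5 ppm, where 1.13% of all genes rose, and after median centring 1 rose. At 20 ppm 3 of the 11 rose and 3 fell, where 13.2% of all genes changed. Il33, an alarmin cytokine, rose by 1.61 (adjusted p = 2.37e-07), with 10.32 at 20 ppm against 8.71 at 0 ppm. Egfl6 rose by 0.77 (adjusted p = 0.0191), while Lgi3 fell by 0.70 (adjusted p = 0.00534) and Lpcat1 fell as given above. At 120 ppm none rose and 5 fell, where 74.8% of all genes changed, and median centring gave 1 rising and 4 falling genes. Without replicates 4 and 5 of that dose 1 rose and 6 fell. Hc, the complement gene C5, fell by 1.88 (adjusted p = 8.90e-13), Dram1 fell by 1.42 (adjusted p = 2.10e-14) and S100g fell by 0.31 (adjusted p = 0.0121). Egfl6 was at least 1.53-fold lower, with 1 array of 5 above the controls (adjusted p = 3.96e-05).

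The lists of other lung cells give the setting in which the members moved. Over all genes 6.45% rose and 6.74% fell at 20 ppm, and 42.9% rose and 31.9% fell at 120 ppm. All 5 measured genes of alveolar epithelium in transition between type 2 and type 1 (Krt8, Cldn4, Sfn, Krt19 and Lcn2) rose at 20 and at 120 ppm. Their mean level per array was 9.90 to 10.2 at 20 ppm and 10.4 to 10.9 at 120 ppm, against 8.56 to 9.07 at 0 ppm. Lcn2 rose by 1.95 at 20 ppm (adjusted p = 7.84e-12) and Cldn4 was at least 7.97-fold higher at 120 ppm (adjusted p = 1.13e-12). These genes are also expressed by airway epithelium, and Lcn2 by inflammatory cells. The counts for this list were the same under median centring and quantile normalisation.

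Of 6 club cell markers, 4 fell at 20 ppm and all 6 at 120 ppm, where their mean level was 12.1 to 12.5, against 12.9 to 13.3 at 0 ppm. After median centring 3 fell at 20 ppm and 5 at 120 ppm. Before centring, 6.74% of all genes fell at 20 ppm and 31.9% at 120 ppm. Cyp2f2 fell by 0.66 at 20 ppm (adjusted p = 3.97e-07), a dose at which Sftpd and Cxcl15, which club cells also express, rose. At 120 ppm Aldh1a1 fell by 1.94 (adjusted p = 2.04e-15), and Cxcl15 and Sftpa1 fell too. Whether the club cells account for any of the change in these 3 genes was not tested. In whole lung, fewer cells of a type and less RNA per cell cannot be told apart.

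Of 6 type 1 cell markers, 1 rose at 20 ppm, and at 120 ppm 2 rose and 4 fell. Clic5 fell by 1.69 at 120 ppm (adjusted p = 2.46e-10), while the water channel gene Aqp5 rose by 1.12 (adjusted p = 3.57e-15). Among 5 genes of any epithelial cell (Epcam, Cdh1, Krt8, Krt18 and Cldn7), 3 rose at 10, 20 and 40 ppm and 2 did not pass. Sftpd rose at these doses too, as did 5.17%, 6.45% and 7.69% of all genes. Krt8 is also in the transition list above. The mean level of the 5 genes per array was 10.60 to 10.82 at 10 ppm, 10.71 to 10.93 at 20 ppm and 10.71 to 11.02 at 40 ppm, against 10.24 to 10.50 at 0 ppm. At 120 ppm 3 of them rose and 2 fell, with a mean level of 10.49 to 10.82. Of 6 alveolar macrophage genes, 4 fell at 120 ppm. Their mean level was 7.28 to 7.61 there, against 8.01 to 8.58 at 0 ppm, but these levels give no size. As few as 1 of the 6 genes was above the nonspecific controls on an array at 120 ppm, against all 6 at 0 ppm. Of 4 neutrophil genes, 1 fell at 10 ppm, where 6.62% of all genes fell. At 120 ppm 2 of 5 endothelial genes rose and 3 fell, and 1 of 5 fibroblast genes rose and 3 fell. Of 5 ciliated cell genes, 2 rose and 3 fell there. Over all genes 42.9% rose and 31.9% fell at that dose. Whether any of these lists differed from those shares was not tested. The part of these cell types in the members' changes was not tested.

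**Figure D4:**
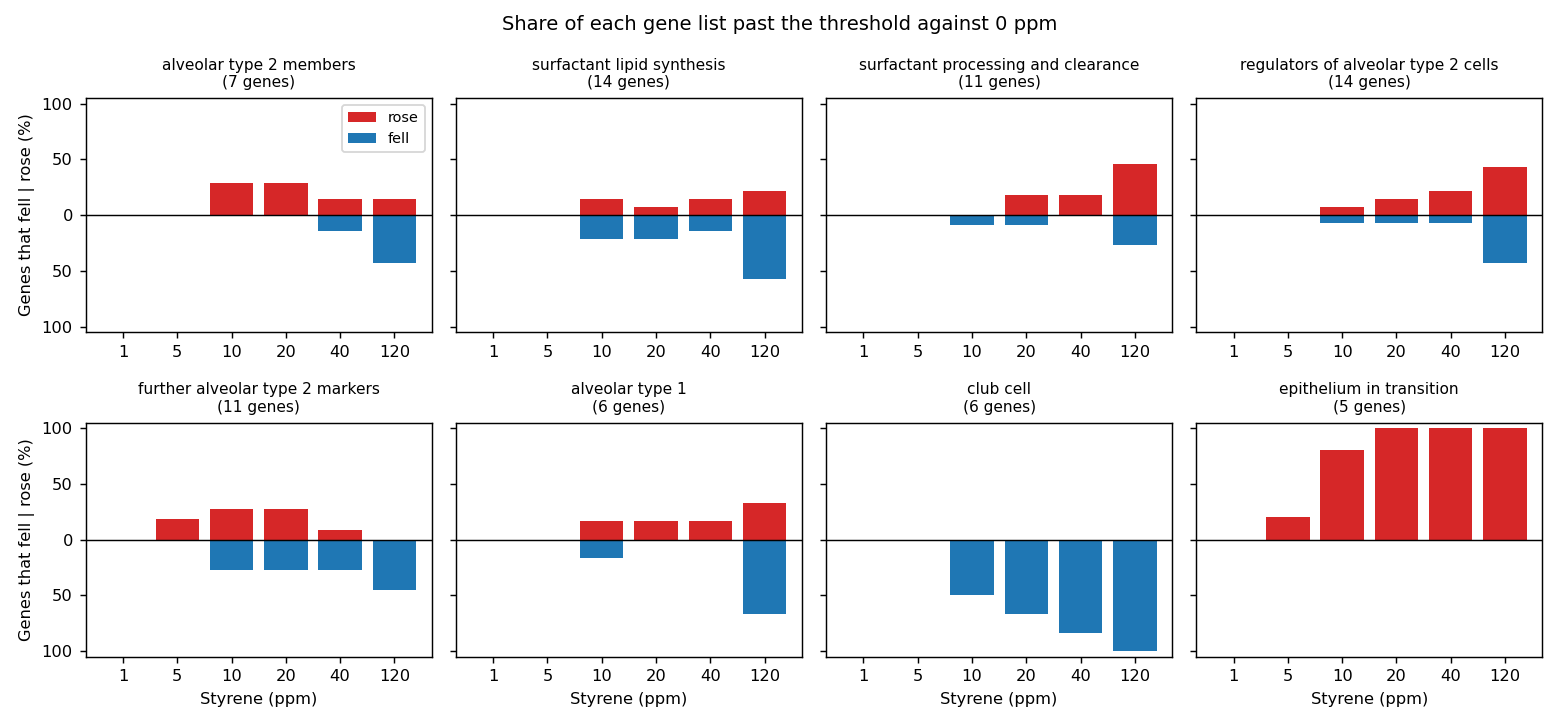
Share of the measured genes of 8 lists that rose (upward) or fell (downward) against 0 ppm at each styrene dose in ppm, in percent. All 6 club cell genes fell and all 5 transition genes rose at 120 ppm, while the 7 genes of surfactant and type 2 cells moved in both directions. Over all genes 42.9% rose and 31.9% fell at that dose.

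Which members were most alike depended on the 120 ppm arrays. Sftpa1 and Cxcl15 had the highest correlation over the 35 arrays, 0.82, but 0.49 over the 30 arrays at 0 to 40 ppm and 0.16 once each dose's mean was taken out of these. Over the 30 arrays Napsa and Etv5 (0.59) and Sftpd and Cxcl15 (0.58) were more alike, and over the 35 arrays these pairs had 0.63 and 0.18. With each dose's mean taken out of the 30 arrays they had 0.68 and 0.30. Sftpd and Napsa ran in opposite directions over the 30 arrays, with −0.61, but had 0.19 once each dose's mean was taken out. These are descriptions of arrays that share dose groups and normalisation.

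Among genes with a mean of at least 7, those whose pattern was most like that of Sftpc over the 35 arrays were Col4a1 (r = 0.45), Sftpd (0.45), Rtn4 (0.45), Ccnd2 (0.40) and Rrbp1 (0.40). All are weak, and the whole range of Sftpc was only 0.127. For Etv5 the 5 genes most alike were Zfp346 (r = 0.70), Mknk1 (0.69), Clec14a (0.68), Dact1 (0.68) and Slc41a1 (0.68). Without the 120 ppm arrays these 5 correlations were between 0.43 and 0.66.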

How the data were processed

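Whole-lung RNA from 35 samples was hybridised to Affymetrix HT MG-430 PM arrays. The values are log2 signals deposited by the authors, made with RMA and Partek per the submitters' processing notes. No source used here gives tool versions, a genome build or scan batches. The authors' normalisation was kept. Probe sets took their symbols from the platform annotation (28898 with 1 symbol, 551 with several), 104 control probe sets were left out, and the brightest probe set stood for each of 17097 genes.

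Groups came from the dose in the labels. limma 3.58.1 in R 4.3.3 fitted 7 group means over 35 arrays, and a slope on log2(dose + 1) over the 30 arrays up to 40 ppm. All tests were two-sided, with an adjusted threshold of 0.05 and 95% intervals, and the fit was tested on simulated data. A probe set not above the highest of 23 nonspecific controls on every array of a group has only a lower bound on its fold there, set at that control. Gaps between probe sets were compared by exact permutation.

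The members and lists were chosen with earlier results of these data known. The 9 members are always named, with up to 4 called genes of each further list and comparison, those with the largest changes. Likeness was Pearson's r. Same-numbered arrays did not deviate together throughout (correlations −0.44 to 0.54), so the numbers were not taken as pairs. Alternatives changed the probe set rule, scaling, variance model, arrays in the fit and trend scale. The number of arrays limits the precision.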

Additional observations from a re-analysis of the deposited data

Results flagged for a closer look

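In 49 groups of 5 arrays (7 genes at 7 doses) the highest or lowest array was checked against the others with Dixon's 95% limit, which chance passes in about 1 group in 20, and 3 groups passed. Replicate 1 of 1 ppm was far above the other 4 arrays of its dose in Napsa, at 8.51. Replicate 1 of 10 ppm was far below the others in Sftpd, at 12.80, and still above all 0 ppm arrays. Replicate 5 of 120 ppm was far above the others in Sftpd, at 12.95. Without it Sftpd was higher at 120 ppm than at 0 ppm by 0.14 (adjusted p = 0.0376 by limma).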

How the results depend on the processing

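The rises of Sftpd at 10, 20 and 40 ppm and the fall of Cxcl15 at 120 ppm passed under every alternative run for them, other than a minimum fold of 1.5, which the rises of Sftpd did not reach. Leaving out 1 array in turn gave −0.77 to −0.69 for Cxcl15 at 120 ppm. The calls of Napsa, Sftpa1 and Sftpd at 120 ppm were lost with the 2 compared groups alone, where their adjusted p were 0.0799, 0.0993 and 0.0892. Quantile normalisation left Napsa at −0.21 (adjusted p = 0.105) and array weights left Sftpd with adjusted p = 0.0531. The fall of Napsa at 40 ppm was lost without any of 6 arrays (adjusted p 0.0517 to 0.107) and after centring (0.0735). Signals near saturation limit what can be seen of Sftpc, Sftpa1, Sftpd and Cxcl15. The cause of these changes was not tested.

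With the replicate block, the numbers of changed members were 0, 0, 2, 2, 2 and 4 at 1, 5, 10, 20, 40 and 120 ppm, 2 for 120 against 40 ppm, 0 for 40 against 20 ppm and 2 for the slope, as without the block, and no call changed. The counts that follow have no share of all genes called under the same alternative beside them. A change of count is therefore not read as a result about the members. At 10 ppm the count of 2 became 1 over all probe sets, 1 after centring, 1 without the 2 arrays of animal number 15, 0 with the second brightest probe set (3 members have one) and 0 with a fold of at least 1.5. At 20 ppm it became 1 with the second brightest probe set and 0 with the fold minimum. At 40 ppm it became 0 under each of these and 1 after centring. At 120 ppm the count of 4 became 2 with the second brightest probe set, 1 with the fold minimum and 1 with the compared groups alone, 3 after centring, quantile normalisation or array weights, and 5 with the mean of probe sets, where Abca3 joined through a probe set below the control signals at 120 ppm. Against 40 ppm the count of 2 became 1 with the fold minimum, 1 after centring and 1 with the compared groups alone, and 3 after quantile normalisation, with array weights, with trended and robust variance and without replicates 4 and 5 of 120 ppm, where Sftpd joined each time. The mean of probe sets also gave 3, with Abca3. Array weights made 1 member, Cxcl15, differ between 40 and 20 ppm. The slopes became 0 with the second brightest probe set. Without 1 array in turn the counts ran from 1 to 2 at 10, 20 and 40 ppm, 3 to 4 at 120 ppm and 2 to 4 for 120 against 40 ppm, with 4 only without replicate 5 of 120 ppm, when Sftpd and Abca3 (−0.26, adjusted p = 0.00937) joined. For slopes they ran from 2 to 3, with 3 only without replicate 4 of 40 ppm, when Cxcl15 joined (0.03, adjusted p = 0.0269).

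No called difference turned its direction. Among differences from 0 ppm that had not passed, these changed sign. With the second brightest probe set Abca3 was −0.0437 at 20 ppm and 0.00987 at 120 ppm, Cxcl15 0.00618 at 40 ppm and the Sftpa1 slope −0.0163. With the mean of probe sets Abca3 was −0.0024 at 1 ppm, −0.0949 at 20 ppm, −0.0664 at 40 ppm and −0.0169 in slope, Cxcl15 0.00124 at 40 ppm and the Sftpa1 slope −0.00525. With array weights Cxcl15 was −0.0149 and Sftpc −0.00865 at 1 ppm, Abca3 0.0137 at 5 ppm, 0.00649 at 10 ppm and 0.0362 at 120 ppm, Sftpa1 8.64e-05 at 40 ppm and Etv5 0.0117 at 120 ppm. After centring Abca3 was −0.00868, Cxcl15 −0.0305 and Sftpc −0.0226 at 1 ppm, Sftpa1 −0.00316 at 5 ppm, Abca3 0.00221 at 10 ppm, Cxcl15 0.0439 and Sftpa1 0.0458 at 40 ppm, Abca3 0.0711 and Etv5 0.0784 at 120 ppm, and Sftpc 0.0175 for 120 against 40 ppm. After quantile normalisation Abca3 was −0.0129 at 20 ppm, Cxcl15 0.0410 at 40 ppm and Etv5 0.0165 at 120 ppm. Without the arrays of animal number 15 Sftpc was −0.00256 at 1 ppm, and Etv5 0.0312 and Sftpa1 −0.0139 at 5 ppm. Without replicates 4 and 5 of 120 ppm Abca3 was 0.0342 and Etv5 0.0433 there. The Sftpa1 slope was −5.42e-05 on dose in ppm and −0.0179 with the 120 ppm arrays included, where the slope of Cxcl15 was −0.0666 (adjusted p = 0.00482).

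Leaving out 1 array in turn gave ranges across 0 at 1 ppm for Abca3 (−0.0241 to 0.0715), Cxcl15 (−0.0253 to 0.0180) and Sftpc (−0.00256 to 0.0222). At 5 ppm it did so for Abca3 (−0.0300 to 0.0157), Etv5 (−0.190 to 0.0312), Sftpa1 (−0.0139 to 0.0633) and Sftpd (−0.0190 to 0.0557). At 10 ppm Abca3 ran from −0.0233 to 0.0278, and at 20 ppm from −0.0044 to 0.0335. At 40 ppm Cxcl15 ran from −0.0248 to 0.0426 and Sftpa1 from −0.0144 to 0.0105. At 120 ppm Abca3 ran from −0.109 to 0.119 and Etv5 from −0.169 to 0.195. Against 40 ppm at 120 ppm Etv5 ran from −0.0607 to 0.303 and Napsa from −0.0772 to 0.165. At 40 against 20 ppm Napsa ran from −0.111 to 0.00125.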
